A study of Caenorhabditis elegans with 3 samples.

Results

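The nssp genes of the nematode Caenorhabditis elegans form a named gene class of small secreted peptides. Members were the probes whose annotation, with symbols brought up to date, gave exactly 1 gene symbol of the nssp class. This rule found 42 genes among the 15159 genes tested. The gene table of assembly WBcel235 lists 86 nssp genes, and the other 44 were not among the genes tested. Each of the 42 had 1 probe and a value on all 3 arrays. Genes with a value on fewer than 2 arrays had been left out before. A gene lost in that way would be among the 44, and this was not checked. The rule itself used names only, but the class was picked for description with its ratios on these arrays already known. The early L4 ratios of its members are therefore given as a description, without a p-value, and no support is drawn from them.

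The study set RNA of early L4 hermaphrodites against RNA of a mixed wild-type reference on 2-colour microarrays. The labels state neither what was mixed to make the reference nor the strain, age in hours or rearing of the worms. They give 1 group of 3 preparations (1, 2 and 3), each hybridised on an array of its own with the reference in channel 1 and early L4 RNA in channel 2. The array titles carry a different date each, so a preparation, its array and that date cannot be told apart. The values are log2 ratios of the channels, and here each array was shifted so that its median was 0.

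The labels leave the numerator of the ratio unstated. Early L4 over reference was taken as the likely direction, because each description puts the early L4 worms first and sets them against the reference, in the same layout on every array. A negative ratio below means less RNA in early L4 worms than in the reference under that reading. It would mean the opposite if the ratio ran the other way. Whole worms were used, so fewer cells of a type and less RNA per cell cannot be told apart.

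Small secreted peptides are made as precursors whose first stretch, the signal peptide, sends them into the secretory pathway and out of the cell. Nematodes hold many families of such short proteins. Among the well-studied ones are the neuropeptides, which neurons release to signal to other cells, and the antimicrobial peptides of epidermis and intestine. The L4 larva is the stage that molts into the adult; in it the gonad and vulva mature and hermaphrodites make sperm before switching to oocytes. The individual nssp genes are known here by name and locus only, so they are ordered below by the size and evenness of their ratios and not by role.

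Markers of the sample were read first. At the threshold used for them, 12.6% of all genes tested were higher and 10.1% lower. Of 9 sperm genes 8 were higher in early L4 (limma, adjusted p under 0.05), and their median log2 ratio was 1.92. Of 7 oocyte and eggshell genes 6 were lower, and the median was -2.16. Of 4 body wall muscle genes 3 were higher, and of 6 intestinal genes 3 were higher and 1, vit-2 at -3.90, lower. In the epidermis list 1 of 4 genes was higher and 1, col-19 at -1.53, lower. Among 5 measured genes of the pharynx and its glands 1 was lower. Of 5 general neuronal genes 0 passed in limma (1 on each side at an unadjusted p under 0.05); their median was -0.46, with values between -1.25 for egl-3, a processing enzyme of neuropeptides, and 0.58 for the kinesin gene unc-104. Neither of the 2 measured somatic gonad genes and none of the 3 male-enriched genes passed in limma (0 and 0 at an unadjusted p under 0.05). The part of these markers in the nssp ratios was not tested.

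Most nssp genes had negative ratios. The mean ratio of 3 arrays was below 0 for 39 of 42 nssp genes, beside 50.4% of all genes tested. The class median was -0.49, with the middle of the class between -0.78 and -0.15 (lower and upper quartiles), beside a median of -0.01 and quartiles of -0.36 and 0.37 over all genes. Single means ran between -1.84 and 0.20.

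The pattern was seen on each array. The class median was -0.42 on the array of preparation 1, -0.55 on that of preparation 2 and -0.48 on that of preparation 3. On these arrays 30, 37 and 38 of the 42 genes lay below 0, beside 50.3%, 50.1% and 50.9% of all genes. Ratios were negative on all 3 arrays for 26 nssp genes (27.6% of all genes) and positive on all 3 for 1 (26.2% of all genes), and 15 had mixed signs. At an adjusted p under 0.05 in the limma fit over all genes, 11 nssp genes were lower (10.1% of all genes), 31 did not pass and 0 were higher (12.6% of all genes). At an unadjusted p under 0.05, 0 nssp genes were higher (18.1% of all genes) and 21 lower (16.6% of all genes). A mean of 2-fold or more was reached by 6 genes on the lower side (6.11% of all genes) and by 0 on the higher side (8.67% of all genes). Nothing is read from these counts, since the class was proposed with the same ratios in view.

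**Figure D1:**
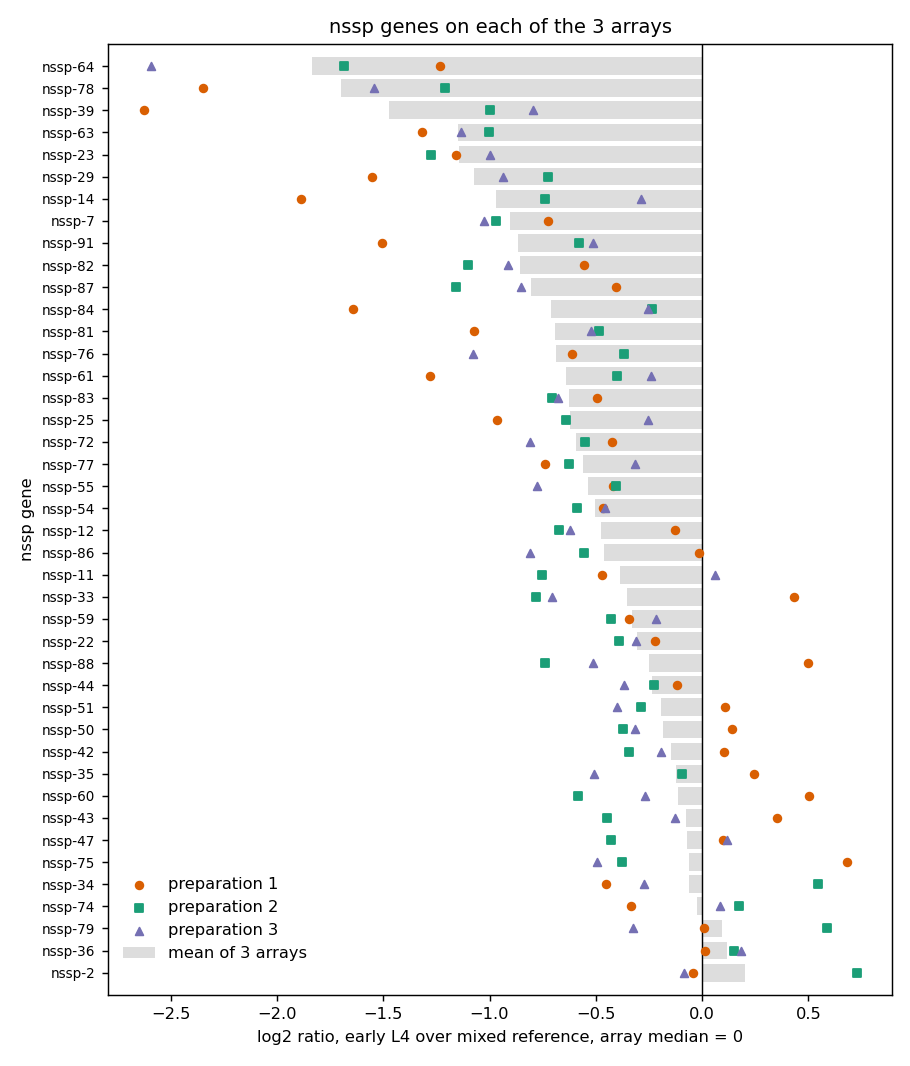
Log2 ratio of each of the 42 nssp genes (rows, sorted by mean) on the array of each preparation (coloured points) with the mean of 3 arrays as a grey bar; the array median is 0. Means run between -1.84 for nssp-64 and 0.20 for nssp-2, and 39 of the 42 bars point to the negative side.

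**Figure D2:**
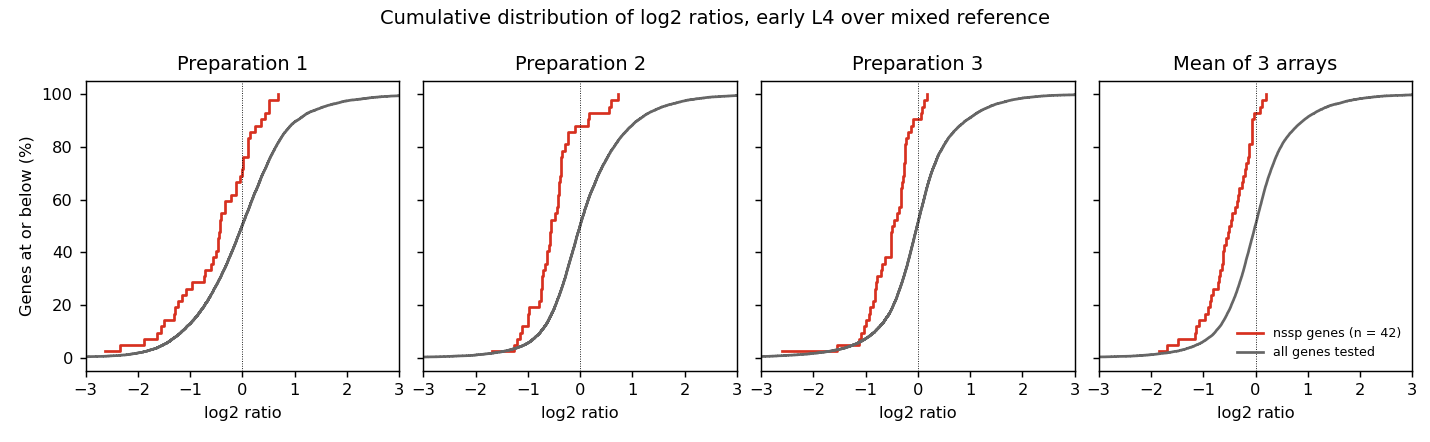
Percentage of genes at or below each log2 ratio (horizontal axis, shown between -3 and 3) for the 42 nssp genes in red and all genes tested in grey, in a panel for each preparation and for the mean. The class median lies at -0.42, -0.55 and -0.48 on the arrays of preparations 1, 2 and 3, and at -0.49 for the mean.

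The lowest members were led by nssp-64 (F17C11.2, chromosome V). Its log2 ratios were -1.23, -1.68 and -2.59 for preparations 1, 2 and 3, a mean of -1.84 ± 0.69 (SD, n = 3) or 3.57-fold lower. All 3 arrays were more than 2-fold below the reference, preparation 3 the most, and the mean stood in the lowest 1.49% of all genes. nssp-78 (T22E5.1, chromosome X) had ratios of -2.35, -1.21 and -1.54, a mean of -1.70 ± 0.59 and 3.25-fold lower. Here preparation 1 was the lowest. nssp-39 (M03D4.3, chromosome IV) had -2.63, -0.998 and -0.796, a mean of -1.47 ± 1.00 and 2.78-fold lower. Its SD was the largest of the class, and its first value was far below the others.

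The next members were more even. nssp-63 (F58B4.3, chromosome V) had -1.32, -1.002 and -1.13, a mean of -1.15 ± 0.16 (SD, n = 3) and 2.22-fold lower. nssp-23 (ZK971.1, chromosome II) had -1.16, -1.27 and -0.996, a mean of -1.14 ± 0.14 and 2.21-fold lower. The arrays of these 2 genes lay close together. nssp-29 (C54C6.5, chromosome III) had -1.55, -0.73 and -0.94, a mean of -1.07 ± 0.43 and 2.10-fold lower. With it the 6 genes at 2-fold or more were complete, and they lay on chromosomes II, III, IV, V and X. The means of the members just outside the 2-fold line were -0.97 for nssp-14 and -0.91 for nssp-7.

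A further 5 genes were among the 11 past the threshold with a mean under 2-fold. nssp-14 (F02E11.2, chromosome II) had -1.89, -0.74 and -0.29, a mean of -0.97 ± 0.82 (SD, n = 3). This was the second largest SD of the class, and again preparation 1 gave the lowest value. nssp-7 (C04F12.5, chromosome I) had -0.72, -0.97 and -1.03, a mean of -0.91 ± 0.16. nssp-91 (F38E9.6, chromosome X) had -1.50, -0.58 and -0.51, a mean of -0.86 ± 0.55. Its array of preparation 1 stood apart, while that of nssp-7 was the least negative of its 3. nssp-82 (C18A11.2) and nssp-87 (F41E7.7), both on chromosome X, had means of -0.86 ± 0.28 and -0.80 ± 0.38, with preparation 2 the lowest of the 3 for each (-1.10 and -1.16). Which genes passed depended on the arrays used. Without preparation 1, 14 nssp genes passed, 9 of them from the 11. Without preparation 2 or 3 there were 8 and 9, of which 8 and 8 came from the 11. The count over all genes moved the same way, from 3444 to 3931 without preparation 1, and to 2423 and 2762 without preparations 2 and 3. The genes past the threshold in all of these fits were nssp-64, nssp-78, nssp-39, nssp-63, nssp-23 and nssp-29.

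Another 15 genes were negative on all 3 arrays without passing, with means between -0.71 and -0.24. nssp-84 (R09F10.5, chromosome X) led them with -1.64, -0.24 and -0.25, a mean of -0.71 ± 0.81 (SD, n = 3). Preparation 1 alone made most of this mean. nssp-61 (ZK856.6, chromosome V), with -1.28, -0.40 and -0.24, and nssp-81 (C39D10.2, chromosome X), with -1.07, -0.49 and -0.52, likewise had their lowest value on the array of preparation 1. nssp-76 (T07D1.3) had a mean of -0.69 ± 0.36, nssp-25 (D2089.3) one of -0.62 ± 0.36 and nssp-83 (C47D2.1) one of -0.63 ± 0.11.

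The smallest SDs belonged to members of small ratio. nssp-54 (C12D5.5, chromosome V) had the smallest SD of the class, with -0.47, -0.59 and -0.46 and a mean of -0.50 ± 0.07 (SD, n = 3). nssp-22 (T10B9.9, chromosome II) had the second smallest, with -0.22, -0.39 and -0.31 and a mean of -0.31 ± 0.08. Their ratios were small but of 1 sign. nssp-72 (Y43F8A.1) had a mean of -0.60 ± 0.20, nssp-77 (C07A12.2) of -0.56 ± 0.22, nssp-55 (C12D5.3) of -0.53 ± 0.21, nssp-86 (C07B5.3) of -0.46 ± 0.41, nssp-59 (F28A12.3) of -0.33 ± 0.11 and nssp-44 (D2096.9) of -0.24 ± 0.13. For nssp-86 the array of preparation 1 was at -0.01, against -0.55 and -0.81 for the others.

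nssp-12 (C13A10.2, chromosome II) was the only member for which a further probe was found. Probes of several genes were searched by the symbols of the annotation as given, so one listing a member under an older name would be missed. Its own probe had ratios of -0.13, -0.67 and -0.62, a mean of -0.48 ± 0.30 (SD, n = 3). A second probe is annotated to nssp-12 and to F36D3.1 together and was left out by the rule. That shared probe had 0.86, 0.16 and 0.43, a mean of 0.48 ± 0.35. The values of the own probe were all negative and those of the shared probe all positive, without overlap, and the share of each gene in the signal of the shared probe is unknown.

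The 15 genes of mixed sign had means between -0.39 and 0.20, and in most of them preparation 1 stood against the other arrays. In 9 of them preparation 1 alone was above 0, namely nssp-33, nssp-88, nssp-51, nssp-50, nssp-42, nssp-35, nssp-60, nssp-43 and nssp-75. That pattern was seen in 21.4% of nssp genes and 10.4% of all genes. These shares also depend on how far the ratios of a set lie below 0. Wide gaps of this kind were seen in nssp-88 (C05E7.3, chromosome X), with 0.50, -0.74 and -0.51, and in nssp-33 (ZK370.6, chromosome III), with 0.43, -0.78 and -0.71. nssp-75 (C25G6.1, chromosome X) had the highest value of any member on the array of preparation 1, 0.68, against -0.37 and -0.49 on the others. Means of these 9 genes ran between -0.35 for nssp-33 and -0.06 for nssp-75. Those of nssp-51 (K03B4.4), nssp-50 (C50H11.8), nssp-42 (R13A1.5), nssp-35 (Y45F3A.4), nssp-60 (F07C3.2) and nssp-43 (F35H10.2) were -0.19 ± 0.27, -0.18 ± 0.28, -0.14 ± 0.23, -0.12 ± 0.38, -0.12 ± 0.56 and -0.08 ± 0.40 (SD, n = 3), so each SD was larger than the size of its mean. The other mixed genes included nssp-11 (Y39F10A.1), at -0.47, -0.75 and 0.06, and nssp-47 (C43F9.7), at 0.10, -0.43 and 0.12.

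At the top of the class the ratios were close to 0. nssp-2 (C45E1.4, chromosome I) had the highest mean, 0.20 ± 0.46 (SD, n = 3), from values of -0.04, 0.73 and -0.09. Preparation 2 alone was positive. nssp-36 (Y41C4A.6, chromosome III) was the only member above 0 on every array, with 0.01, 0.15 and 0.18 and a mean of 0.11 ± 0.09. nssp-79 (F41B4.2, chromosome X) had 0.01, 0.59 and -0.33, a mean of 0.09 ± 0.46. Its arrays disagreed in sign, as did those of the next genes. nssp-74 (C25G6.4, chromosome X) had -0.33, 0.18 and 0.08, a mean of -0.02 ± 0.27. nssp-34 (T26G10.5, chromosome III) had -0.45, 0.55 and -0.27, a mean of -0.06 ± 0.53. For all 5 of these genes the SD was near to or larger than the distance of the mean from 0.

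The arrays ordered the members alike to a moderate degree. Across the 42 nssp genes Pearson's r was 0.42 for preparation 1 with 2, 0.40 for 1 with 3 and 0.69 for 2 with 3, and Spearman's rho was 0.45, 0.38 and 0.62. Over the 15128 genes measured on all arrays r was 0.68, 0.64 and 0.81. The arrays share the reference, the probes and the channel layout, and genes are no replicates, so these values describe the arrays. The spread of the members within an array was 0.77, 0.48 and 0.50 (SD over genes) for preparations 1, 2 and 3, against 0.94, 0.84 and 0.80 for all genes. The median SD of an nssp gene between arrays, 0.36, was like the 0.36 of all genes.

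The array of preparation 1 was set against the other 2. The value of preparation 1 minus the mean of preparations 2 and 3 had an SD of 0.70 over nssp genes and of 0.68 over all genes, and a median of 0.12 and -0.01. Preparation 2 minus preparation 3 had an SD of 0.39 over nssp genes and 0.51 over all genes. Preparation 1 gave the lowest value in 14 of 42 nssp genes (33.3%, beside 40.8% of all genes) and the highest in 19 (45.2%, beside 38.4%). It was alone above 0 in 9 (21.4%, beside 10.4%) and alone below 0 in 1 (2.38%, beside 10.7%). The gap thus ran in both directions, with preparation 1 more often the highest than the lowest in the class, which was not tested. Preparation 2 was alone above 0 in nssp-2 and nssp-34, and preparation 3 in nssp-11. Sign counts also depend on how far the ratios of a set lie below 0, and most nssp means lay below 0. The part of either in these counts was not tested.

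**Figure D3:**
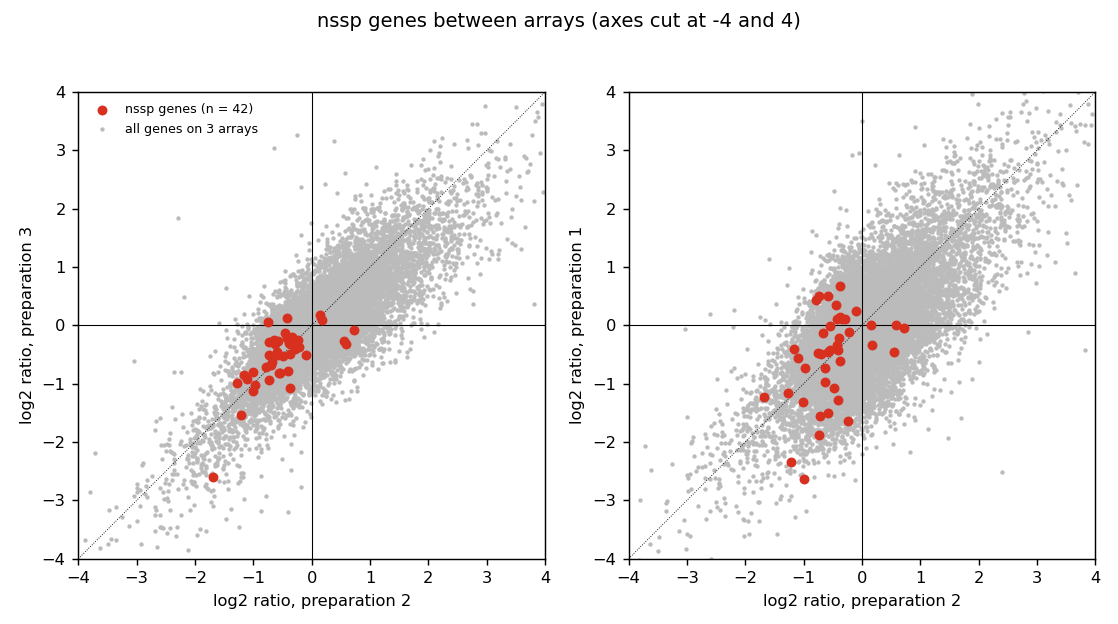
Log2 ratio of preparation 3 (left panel) and of preparation 1 (right panel), on the vertical axis, against preparation 2, on the horizontal axis, for nssp genes in red and all genes measured on 3 arrays in grey; axes are limited to -4 and 4, and the dotted line marks equal ratios. The nssp genes scatter more widely against preparation 1 (r = 0.42) than against preparation 3 (r = 0.69).

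The nssp genes lie on all 6 chromosomes. The 42 measured genes were split into 2 on chromosome I, 6 on II, 5 on III, 5 on IV, 10 on V and 14 on X, out of 8, 16, 8, 13, 23 and 18 nssp genes in the gene table. Chromosome X held 33.3% of the measured nssp genes and 15.04% of all genes tested. It holds 18 of the 86 nssp genes in the gene table. The part of its nssp genes that was measured was larger than on any other chromosome, which raises the share among measured genes. The X-linked members had a median ratio of -0.66, with 13 of 14 below 0, and the autosomal members had a median of -0.37, with 26 of 28 below 0. Over all genes the medians were -0.02 on X and -0.005 on the autosomes, with 51.0% and 50.3% of genes below 0. By chromosome the nssp medians were -0.35 on I, -0.55 on II, -0.12 on III, -0.14 on IV and -0.52 on V. No test was made of these differences, because members are not replicates.

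Some members are close to each other. nssp-54 and nssp-55 have 1 coding gene between them, C12D5.4, and had means of -0.50 and -0.53, while C12D5.4 had 0.07 ± 0.29 (SD, n = 3; limma adjusted p = 0.866). nssp-74 and nssp-75 are likewise separated by 1 gene, npr-11, of a class of neuropeptide receptors. They had means of -0.02 and -0.06, and npr-11 had -0.55 ± 0.49 (adjusted p = 0.145). nssp-63 and nssp-64, with 6 coding genes between them, were both among the 4 lowest members. C12D5.4 and npr-11 were named for their place, outside the rule for named genes.

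The genes beside the members were then examined, since they were chosen by position and not by value. For the 10 members of largest ratio, the nearest measured gene on each side gave 20 genes, with at most 2 unmeasured genes or other members between. Of these, 3 were higher, 3 lower and 14 did not pass (limma, adjusted p under 0.05), beside 22.7% of all genes past the threshold in either direction; their median ratio was 0.06. Around all 42 members there were 82 such genes, of which 10 were higher, 6 were lower and 66 did not pass; their median ratio was 0.003. Without preparation 3 there were 6 higher ones, and without preparation 2 there were 3 lower ones. The clearest contrast was at nssp-78. Its neighbour mup-2, which encodes a troponin T of muscle, had 2.72, 2.14 and 2.16, a mean of 2.34 ± 0.33 (limma adjusted p = 0.000175), against -1.70 for nssp-78, and T22E5.6 on the other side had -0.13 ± 0.44 (adjusted p = 0.755).

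nssp-7 lay between a pair of genes that were higher. These were rpl-14, for a protein of the large ribosomal subunit, at 0.71 ± 0.17 (SD, n = 3; limma adjusted p = 0.0393), and C04F12.7, at 0.90 ± 0.17 (adjusted p = 0.0141). nssp-7 itself had -0.91, and 1 unmeasured gene lies between it and C04F12.7. With 1 preparation left out, rpl-14 no longer passed in any of the 3 limma fits (adjusted p between 0.0529 and 0.148), nor C04F12.7 without preparation 3 (adjusted p = 0.058). The mean of rpl-14 was 0.62, 0.77 and 0.76 without preparations 1, 2 and 3, and that of C04F12.7 without preparation 3 was 0.91.

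Beside 3 members 1 neighbour was lower. nep-26, of a class named for neprilysin-like metallopeptidases, had -1.10 ± 0.17 (limma adjusted p = 0.00534; SD, n = 3) next to nssp-23 at -1.14, while F54B3.2 on the other side had 0.34 ± 0.06 (adjusted p = 0.287). C18A11.1 had -2.04 ± 0.51 (adjusted p = 0.000471) next to nssp-82 at -0.86, and C18A11.3 had 0.33 ± 0.62 (adjusted p = 0.428). nas-31, an astacin-type metalloprotease gene, had -0.74 ± 0.39 (limma adjusted p = 0.049) near nssp-63 at -1.15. It lost its call with any preparation left out (adjusted p between 0.0819 and 0.108), with means of -0.52, -0.89 and -0.80 without preparations 1, 2 and 3. On the other side of nssp-63, scvp-1 had -0.49 ± 0.59 (adjusted p = 0.224).

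The remaining neighbours did not pass. Beside nssp-64 these were F17C11.26 at 0.54 ± 0.67 and the collagen gene col-153 at 0.22 ± 0.51 (SD, n = 3). Both means were positive, but on the array of preparation 3 both genes were below 0 (-0.23 and -0.30). Without preparation 2 the mean of col-153 was -0.03. nssp-39 was flanked by lag-1, the transcription factor of Notch signalling, at -0.54 ± 0.30, and by zen-4, a kinesin of cytokinesis, at -0.47 ± 0.10. Without preparation 1 lag-1 passed (-0.71, limma adjusted p = 0.0331). Next to nssp-29 were ben-1, a beta-tubulin, at 0.59 ± 0.59, which passed without preparation 1 (0.92, adjusted p = 0.0142), and C54C6.4 at -0.11 ± 0.23. nssp-14 had gcy-19, a receptor-type guanylyl cyclase, at -0.31 ± 0.37 and F02E11.3 at -0.15 ± 0.19. nssp-91 had eat-17 at 0.51 ± 0.69 and the twinfilin gene twf-2 at 0.53 ± 0.14.

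**Figure D4:**
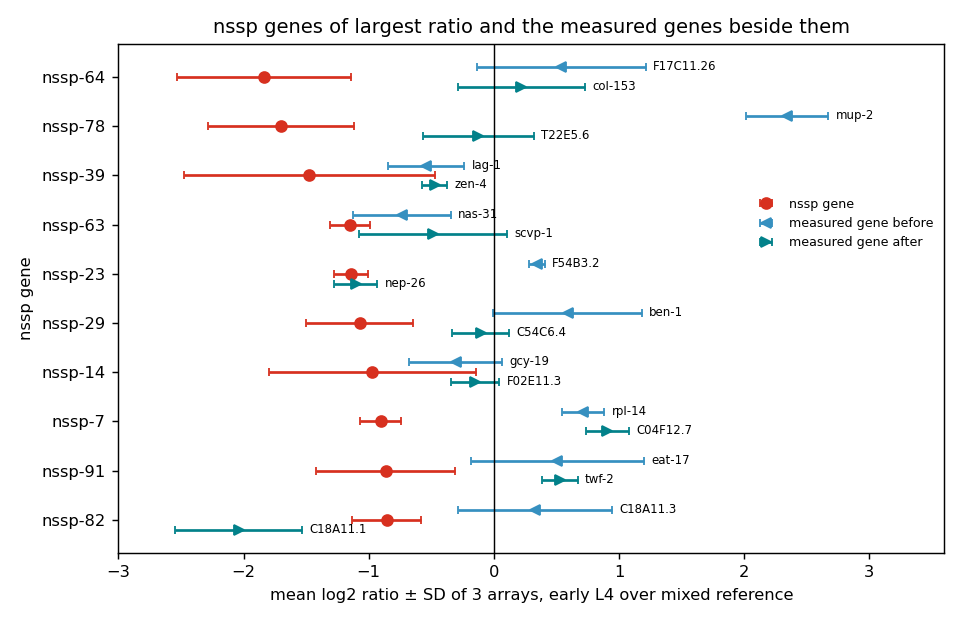
Mean log2 ratio with SD of 3 arrays (horizontal axis) for the 10 nssp genes of largest ratio, in red, and for the nearest measured gene before and after each in the order of the gene table, in blue and green. All 10 nssp means lie between -1.84 and -0.86, while the 20 neighbours lie between -2.04 for C18A11.1 and 2.34 for mup-2.

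Other classes of small or secreted peptides are given beside the nssp genes, with counts past the threshold of the limma fit (10.1% of all genes lower, 12.6% higher). Among the nlp genes, named as neuropeptide-like, 27 of 53 were lower and 0 higher, with a median ratio of -0.71. Of the flp genes, for FMRFamide-like neuropeptides, 10 of 22 were lower and 0 higher, with a median of -0.72. The insulin-like ins genes had 5 of 22 lower, 0 higher and a median of -0.37. At an unadjusted p under 0.05 there were 1, 0 and 0 higher genes in these 3 classes. The nssp class, with 11 of 42 lower and a median of -0.49, thus had a median between those of the ins and the flp genes. No test was made between classes.

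The nsp classes of nematode-specific peptides did not share 1 sign. Of 8 nspd genes 6 were higher and 0 lower (0 at an unadjusted p under 0.05), with a median of 1.45. Of 4 nspc genes 3 were lower, with a median of -1.25. The 5 nspa and 9 nspb genes had medians of 0.18 and 0.18, and 0 of them passed in limma (1 nspa and 0 nspb genes at an unadjusted p under 0.05). No nspe or nspf gene was among the genes tested. The highest nssp gene, at 0.20, was below the median of the nspd genes and above the medians of the nspa, nspb and nspc genes.

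Among classes of innate defence, the caenacins (cnc) had 4 of 7 lower and 1 higher, with a median of -0.80. The saposin-like spp genes had 4 of 16 lower and 1 higher (median -0.44), the fipr genes 3 of 9 lower and 1 higher (median -0.06), and the 3 fip genes 1 lower and 0 higher (median -0.25). The lysozyme genes stood at 5 of 10 higher and 1 lower for lys (median 0.56). For ilys 2 of 6 were higher and 0 lower in limma (2 lower at an unadjusted p under 0.05), with a median of -0.35. Of 3 abf genes 0 passed in limma (0 at an unadjusted p under 0.05), with a median of -0.07. Members of cnc, spp, fipr, lys and ilys were called in the higher direction (12.6% of all genes), while 0 nssp genes were. The same count of 0 was found for fip and abf, and for nlp, flp, ins, nspa, nspb and nspc above. It is thus not particular to the nssp class, whose means ran from -1.84 to 0.20.

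The lowest and highest genes of each class give their spread, as means ± SD of 3 arrays. In the neuropeptide and insulin classes they were nlp-8 (-2.60 ± 0.13) and nlp-22 (0.76 ± 0.66), flp-1 (-2.05 ± 0.26) and flp-32 (0.28 ± 0.80), and ins-35 (-0.99 ± 0.35) and ins-37 (0.47 ± 0.54). In the nsp classes they were nspa-5 (-0.36 ± 0.42) and nspa-9 (0.58 ± 0.50), nspb-6 (-0.22 ± 0.34) and nspb-5 (0.26 ± 0.21), nspc-20 (-2.17 ± 0.33) and nspc-14 (0.03 ± 0.40), and nspd-9 (-0.50 ± 0.51) and nspd-7 (2.70 ± 0.41). In the defence classes they were cnc-1 (-2.18 ± 0.18) and cnc-3 (1.33 ± 0.59), spp-18 (-1.75 ± 0.45) and spp-13 (1.32 ± 0.43), fip-5 (-1.08 ± 0.85) and fip-4 (0.22 ± 0.18), fipr-24 (-1.54 ± 0.62) and fipr-21 (0.98 ± 0.11), abf-4 (-0.20 ± 0.18) and abf-3 (0.07 ± 0.52), ilys-1 (-0.81 ± 0.65) and ilys-5 (2.08 ± 0.38), and lys-3 (-1.78 ± 0.36) and lys-4 (1.39 ± 0.88). The nssp means ran between -1.84 ± 0.69 for nssp-64 and 0.20 ± 0.46 for nssp-2.

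**Figure D5:**
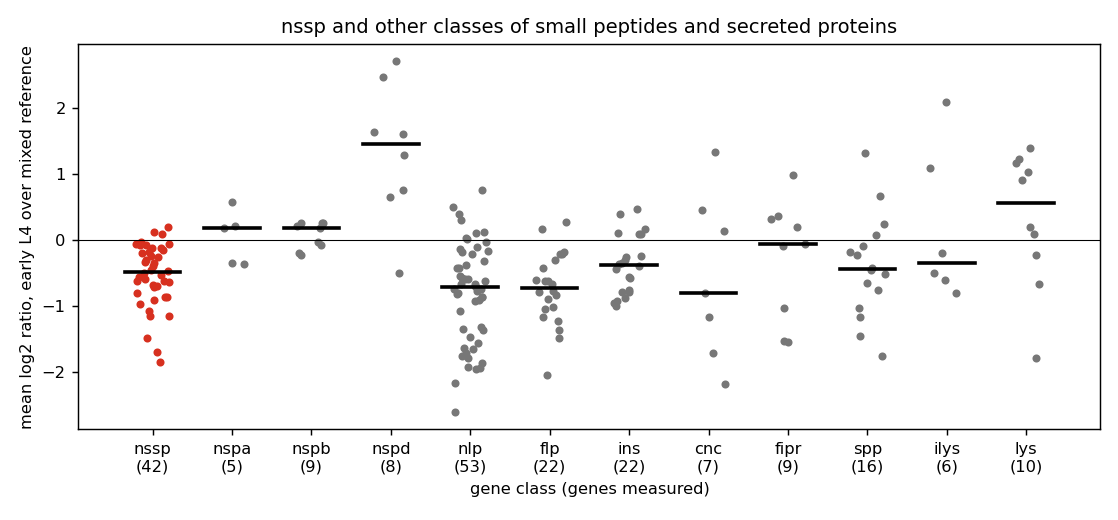
Mean log2 ratio of each measured gene (points) in the nssp class, in red, and in other classes with at least 5 measured genes, in grey, with the class median as a black line; the number of genes is under each name and horizontal scatter has no meaning. The nssp median lies at -0.49, beside -0.71 for nlp, -0.72 for flp, -0.37 for ins and 1.45 for nspd.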

How the data were processed

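Each sample was 1 array of 2 colours, on which channel 1 held the mixed wild-type reference and channel 2 early L4 RNA, per the labels. The values deposited by the authors are log2 ratios. Raised as powers of 2, at least 99.96% of them on each array were whole thousandths (within 0.01 of a thousandth). Their medians were 0.054, -0.082 and -0.025 for preparations 1, 2 and 3, so the arrays came nearly centred. The scanner, dyes, background correction, normalization and numerator of the ratio (not given in the sources used here) could not be examined, nor could spot brightness, and the number of arrays limits the precision. Of 20000 probes per array 19905, 19841 and 19872 had a value.

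Probe names came from an old platform annotation, and those of probes with 1 gene symbol were updated through the gene table of WBcel235. In all 15655 probes had 1 gene symbol (15569 matched by gene number, 86 by symbol), 198 had several and 4147 no listed gene. Values of probes of the same gene were averaged, the median of each array was set to 0, and genes with at least 2 values entered the limma fit (lmFit, eBayes; limma version 3.58.1, R version 4.3.3), which tested the mean against 0 on both sides with 2 residual and 7.59 prior degrees of freedom. P-values were adjusted over all genes by Benjamini-Hochberg. The spread of the reference is left out, and nothing says that the preparations came from separate cultures, so the p-values reflect only how these 3 samples varied, which may be technical. The array's genome build was not given in the sources used here, so no coordinates are printed; chromosomes and gene order are those of WBcel235.

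The members, lists and tests were chosen with earlier results of these data known. The rule for named genes took the 5 highest and 5 lowest nssp means, the 2 largest and 2 smallest SDs, members with more than 1 probe (none), the nearest measured gene on each side of the members of largest ratio up to 20, and the lowest and highest gene of each other peptide class; the values of the other nssp genes were added to account for every member. Results were recomputed without centring, with quantile-normalized arrays (also without centring), on genes with values on all 3 arrays and for each probe on its own. They were also recomputed with trended and robust eBayes, and without each preparation in turn. The trend of that eBayes setting ran over the mean log2 ratio of each gene, which is the value tested. It is not the usual trend over spot brightness, which was not used.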

Additional observations from a re-analysis of the deposited data

How the results depend on the processing

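In all, 3444 genes passed the threshold. This count was 3580 without centring, 4054 with quantile-normalized arrays, 3137 under trended and robust eBayes, and 2423 to 3931 in the fits that left out a preparation. The nssp median of -0.49 was -0.56 with quantile-normalized arrays, a move larger than its spread between arrays. In that setting the arrays were also not shifted to a median of 0. The move therefore holds both changes, and the part of each was not tested. Without centring alone the nssp median was -0.51, and in the fits on 2 preparations it was -0.49 to -0.44. The 11 nssp genes past the threshold became 8 to 14 in those fits, 14 with quantile-normalized arrays, 12 without centring and 10 under trended and robust eBayes. At 2-fold or more there were 6 to 8 nssp genes on the lower side in the fits on 2 preparations and 0 on the higher side in every setting run. Of the 42 means, 9 near 0 changed sign under some alternative and 0 of the 11 past the threshold did, as leaving out an array cannot turn a gene that has 1 sign on all of them. Around all members, the 10 higher neighbours became 6 to 10 and the 6 lower ones 3 to 7 in the fits on 2 preparations, with the lowest counts without preparation 3 (higher) and without preparation 2 (lower). No paired analysis was possible because the labels hold only 1 group. Spot brightness was not used here, so limits from signal over background could not be seen.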
